A study of Mus musculus with 6 samples.

Results

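Transcripts of white fat were followed through mammary tumours by 10 genes, chosen by name: the adipokine genes Adipoq, Lep, Retn and Cfd, the lipid droplet genes Plin1, Plin4 and Cidec, the fatty acid carrier gene Fabp4 and the enzyme genes Car3 and Pck1. A gene was taken as measured where a probe set of the array was annotated to that gene alone. This held for 9 of the 10, among 19937 genes measured in this way, and Cfd was not analysed here. The tumours came from 6 female FVBN mice carrying the MMTV-PyMT transgene, in which the polyoma middle T antigen is made in mammary epithelium from the promoter of a mammary tumour virus. Their age at the start was 75 to 90 days. In the vehicle group 3 mice were given DMSO, and in the other group 3 mice were given TMP195, an inhibitor of class IIa histone deacetylases, at 50 mg/kg once a day into the peritoneum. The descriptions disagree on the length of dosing, which is 5 days in one and 2 weeks in the other. A single whole tumour was taken from each mouse, with whatever fat, muscle and stroma was excised with it, and its RNA was hybridised to 1 Affymetrix array.

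White adipocytes store triglyceride in a single large lipid droplet coated by perilipins and proteins of the CIDE family, and they secrete hormones, the adipokines. Their genes are switched on together during adipocyte differentiation by the nuclear receptor PPAR gamma and by C/EBP factors. The mouse mammary gland is embedded in a fat pad, so a mammary tumour grows next to white adipocytes and can enclose them. The level of leptin depends on how full the fat cell is and on feeding, besides the number of fat cells. In a whole tumour, fewer fat cells and less RNA per fat cell cannot be told apart.

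Promoters of adipocyte genes were searched for TTGCNNAA, a form of the sequence that C/EBP factors bind. The windows with a match are shown because Lep departed from the other genes of the set while Plin1 and Cidec followed them. RefSeq gave 8 windows, each from 250 bases before to 50 after a start site (GRCm38.p6), for 7 of the 9 genes. Fabp4 and Car3 had no entry. Matches to TTGCNNAA on either strand, in capitals below, stood in 3 of the 8 windows and in 10.8% of all 32851 windows of the table. The Lep match is its own reverse complement and begins at position -55 relative to the start site. In Plin1 the matches begin at -187 and -58 relative to it, and in Cidec at -198.
Lep, chr6:29059971-29060270, plus strand: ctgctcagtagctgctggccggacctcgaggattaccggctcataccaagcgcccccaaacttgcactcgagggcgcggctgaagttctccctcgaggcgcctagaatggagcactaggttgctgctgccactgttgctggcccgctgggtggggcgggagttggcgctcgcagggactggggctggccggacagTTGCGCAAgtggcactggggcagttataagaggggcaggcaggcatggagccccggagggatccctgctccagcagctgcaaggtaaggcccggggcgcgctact
Plin1, chr7:79732727-79733026, minus strand: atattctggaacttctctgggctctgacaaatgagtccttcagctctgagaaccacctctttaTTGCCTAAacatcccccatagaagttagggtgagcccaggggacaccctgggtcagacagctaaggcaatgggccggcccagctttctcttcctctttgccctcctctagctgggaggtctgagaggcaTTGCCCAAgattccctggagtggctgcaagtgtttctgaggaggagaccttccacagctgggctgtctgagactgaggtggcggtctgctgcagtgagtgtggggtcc
Cidec, chr6:113434715-113435014, minus strand: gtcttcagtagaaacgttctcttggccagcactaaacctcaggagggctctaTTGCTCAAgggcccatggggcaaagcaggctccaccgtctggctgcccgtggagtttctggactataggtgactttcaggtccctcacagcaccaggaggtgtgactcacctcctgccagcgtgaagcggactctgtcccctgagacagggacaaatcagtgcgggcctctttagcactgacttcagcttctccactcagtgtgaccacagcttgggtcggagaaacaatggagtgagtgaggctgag
The nuclear receptor element AGGTCA was found in 0 of the 8 windows and in 16.3% of all windows. A looser direct repeat of it with a base between was found in 0 of 8 and in 0.381% of all. TATAAA was found in 0 of 8 and in 13.6% of all. A match describes these letters only.

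Over all genes, TMP195 tumour 2 and vehicle tumour 2 stood apart from the rest. In the former 151 genes were more than 2-fold above and 89 more than 2-fold below every other tumour, in the latter 60 and 5, and in the other tumours these counts did not exceed 12. Values without them are given beside the main spans, fits and differences that they move.

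The 6 tumours fell in nearly the same order in every gene of the set. Vehicle tumour 3 held the highest level of all 9 genes, against 10.5% of all genes that were highest there. TMP195 tumour 1 came next and vehicle tumour 1 after it in 8 of the 9 genes, with Lep the exception, and 1.23% of all genes had these 3 tumours on top in this order. TMP195 tumour 2 was lowest in 8 of the 9, where 22.4% of all genes had their lowest value in it. The mean log2 intensity of the 9 genes was 6.93, 5.75 and 8.56 for tumours 1, 2 and 3 under vehicle, while those under TMP195 had 7.82, 4.64 and 5.77. The richest and the poorest tumour thus lay 3.92 apart on the log2 scale, or 15.1-fold (7.04-fold without TMP195 tumour 2), with TMP195 tumour 1 above both vehicle tumours 1 and 2. Vehicle tumour 2 and TMP195 tumour 3 were almost level, and 3 of the 9 genes, Lep, Plin4 and Car3, were higher in the former.

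**Figure D1:**
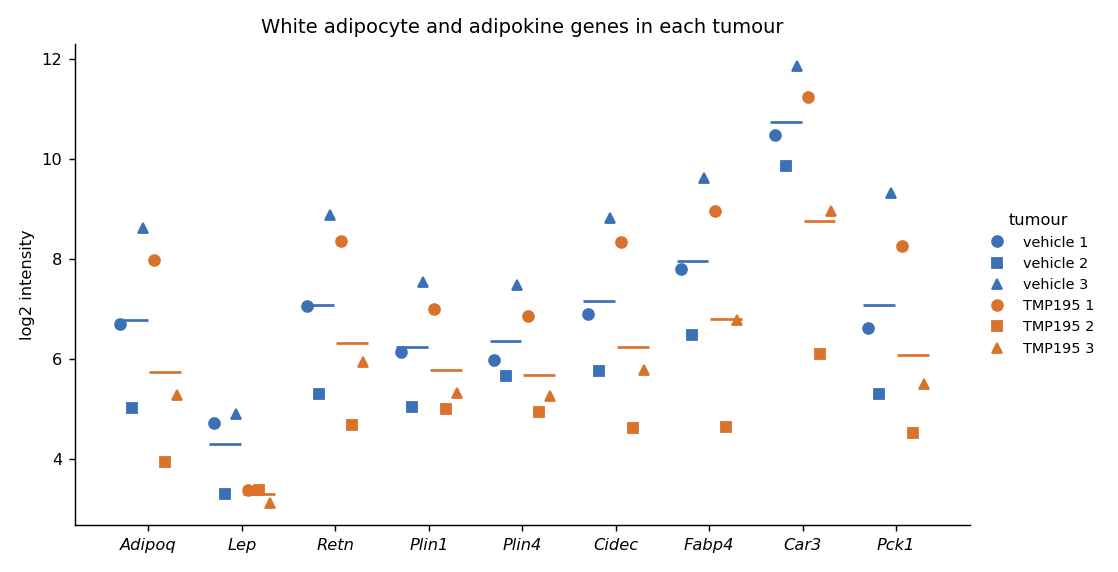
Log2 intensity (vertical axis) of the 9 measured genes in each vehicle (blue) and TMP195 (orange) tumour, with horizontal bars at the group means (n = 3 tumours). Vehicle tumour 3 is highest in all 9 genes, and TMP195 tumour 1 sits well above the other 2 TMP195 tumours in every gene but Lep.

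Among the hormones, Adipoq, which encodes adiponectin, had log2 intensities of 6.70, 5.02 and 8.62 under vehicle and of 7.98, 3.93 and 5.29 under TMP195, each in the order of tumours 1, 2 and 3 kept below. Retn, which encodes the mouse adipocyte hormone resistin, had 7.06, 5.30 and 8.88, then 8.37, 4.68 and 5.94. Both were high in vehicle tumour 3 and TMP195 tumour 1 and low in TMP195 tumour 2, and the groups overlapped. Adipoq spanned 25.9-fold and Retn 18.4-fold between the highest and the lowest tumour. Lep, which encodes leptin, had 4.71, 3.30 and 4.89 under vehicle, then 3.38, 3.37 and 3.12 under TMP195. It was high in vehicle tumours 1 and 3 alone, so the groups overlapped through vehicle tumour 2, and the other 4 tumours lay within 0.26 of each other on the log2 scale. Lep was a dim gene, at percentile 26.9 of mean intensity, where the others ranked from 51.1 to 96.0, and no detection call comes with the values.

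Among the genes of the lipid droplet, Plin1, the perilipin that guards the droplet of fat cells against lipases, had 6.14, 5.04 and 7.54 under vehicle, then 7.00, 5.01 and 5.32 under TMP195. Plin4, a perilipin of newly forming droplets, had 5.97, 5.66 and 7.48, then 6.85, 4.94 and 5.27. Cidec, which makes droplets fuse into a single large one, had 6.89, 5.76 and 8.82, then 8.33, 4.61 and 5.78. The order of the tumours was again that of Adipoq, except that Plin4 was higher in vehicle tumour 2 than in TMP195 tumour 3, and the groups overlapped in all of them. The perilipins spanned less than Cidec: 5.79-fold for Plin1 and 5.84-fold for Plin4 against 18.5-fold.

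Fabp4, the fatty acid carrier of the adipocyte cytoplasm, had 7.80, 6.48 and 9.62 under vehicle, then 8.97, 4.64 and 6.79 under TMP195. Pck1, whose enzyme supplies glycerol for triglyceride in fat, had 6.61, 5.29 and 9.32, then 8.26, 4.51 and 5.50. Car3, a carbonic anhydrase plentiful in adipocytes and in slow muscle fibres, had 10.49, 9.86 and 11.87, then 11.24, 6.11 and 8.96. Car3 had the widest span of the set, 54.3-fold, against 31.6-fold for Fabp4 and 28.1-fold for Pck1. This order rested on TMP195 tumour 2, without which Car3 spanned 7.53-fold, Cidec 8.35-fold, Fabp4 8.82-fold, Retn 12.0-fold, Adipoq 12.2-fold and Pck1 16.3-fold. All 3 genes were lowest in TMP195 tumour 2 and highest in vehicle tumour 3, with the groups overlapping.

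How far a single amount of fat per tumour describes these values was asked by least squares on the log2 values. With 1 amount per tumour and the same slope for every gene, the fit held 85.2% of the sum of squares around the gene means, and the residual SD was 0.65. With a slope of its own for each gene it held 94.2%, and a second pattern held 3.65%. The fitted slopes, scaled to a mean of 1, were 1.32 for Car3, 1.26 for Pck1, 1.25 for Adipoq, 1.23 for Fabp4, 1.14 for Retn and 1.11 for Cidec. They were 0.71 for Plin1, 0.65 for Plin4 and 0.34 for Lep. Without TMP195 tumour 2 these shares were 88.2% and 95.5%, and without vehicle tumour 2 they were 86.1% and 96.1%. The genes had been listed for this pattern of fat with earlier results known, so these shares are a description. Between the tumours richest in fat, vehicle tumour 3 and TMP195 tumour 1, 7 of the other genes differed by 0.49 to 0.65 and Pck1 by 1.06 on the log2 scale, whereas Lep differed by 1.52.

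**Figure D2:**
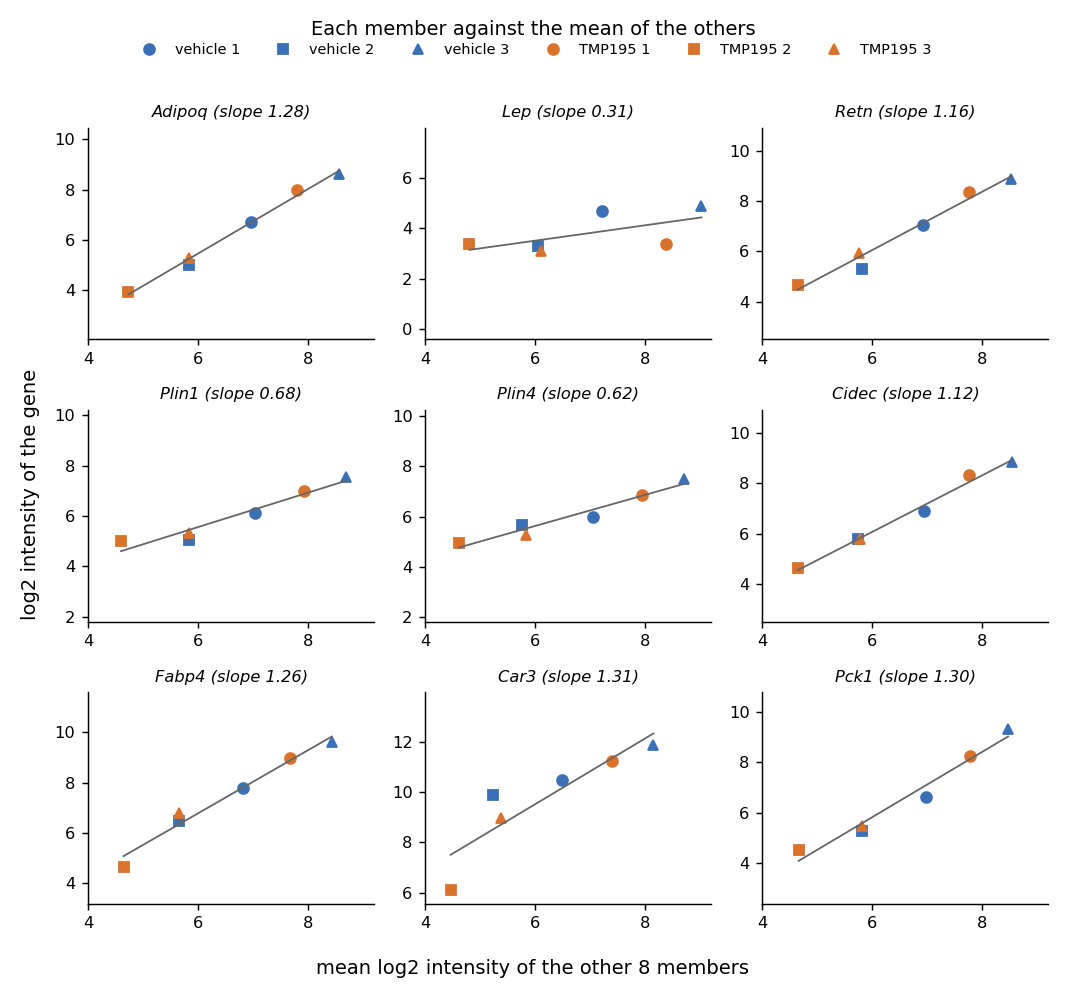
Log2 intensity of each gene (vertical axis) against the mean log2 intensity of the other 8 (horizontal axis) in the 6 tumours, with the least squares line and its slope. The points of 7 genes lie along their line, while Lep is high in vehicle tumour 1 and low in TMP195 tumour 1, and Car3 is high in vehicle tumour 2 and low in TMP195 tumour 2.

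Lep departed most from the common amount. A line on the mean of the other 8 genes left 37.8% of its sum of squares explained, against 80.3% for Car3 and 93.2% to 99.3% for the other 7 genes. Without TMP195 tumour 1 the share for Lep was 72.1%, and without vehicle tumour 3 it was 9.58%. In TMP195 tumour 1, the tumour with the next to highest fat amount, Lep lay 0.86 below its line, and in vehicle tumour 1 it lay 0.83 above. Vehicle tumour 1 exceeded TMP195 tumour 1 by 1.33 in Lep but was below it by 0.75 to 1.65 in the other 8 genes. Log2 values flatten near background, so the lines were also drawn on linear intensity, where an intercept takes up a constant background. There 96.6% to 99.4% was explained in the other 8 genes and 41.2% in Lep. Relative to its own mean, linear Lep intensity was 0.654 in TMP195 tumour 1, where the line gave 1.27, and 1.65 in vehicle tumour 1, where the line gave 0.905.

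Car3 departed most in the tumours numbered 2. In vehicle tumour 2 it lay 1.35 above its line and in TMP195 tumour 2 it lay 1.40 below. Its line explained 91.9% without the former and 89.8% without the latter. In TMP195 tumour 3, where the mean of the set was close to that of vehicle tumour 2, Car3 lay 0.26 above its line. In vehicle tumour 3 it lay 0.46 below. On linear intensity the line explained 96.9% in Car3, but the departures in these tumours remained. Relative to its own mean, Car3 was 0.0454 in TMP195 tumour 2, where the line gave 0.278, and 0.614 in vehicle tumour 2, where it gave 0.389. Vehicle tumour 2 also held the highest level of all 12 skeletal muscle markers, Acta1, Mylpf and Myl1 among them, with a summed intensity of 4236 against 319.7 to 449.9 in the other 5 tumours. Their part in the Car3 value was not tested. Mb, the myoglobin gene of oxidative fibres, had 5.90, 6.86 and 6.10 under vehicle, then 6.13, 5.82 and 5.95 under TMP195. Its log2 range of 1.03 was the narrowest of the muscle list, where Acta1, Mylpf and Myl1 ranged over 4.85, 3.03 and 4.15. In TMP195 tumour 2 Fabp4 too lay below its line, by 0.44, and Plin1, Pck1, Lep and Retn lay above theirs, by 0.40, 0.42, 0.23 and 0.20.

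**Figure D3:**
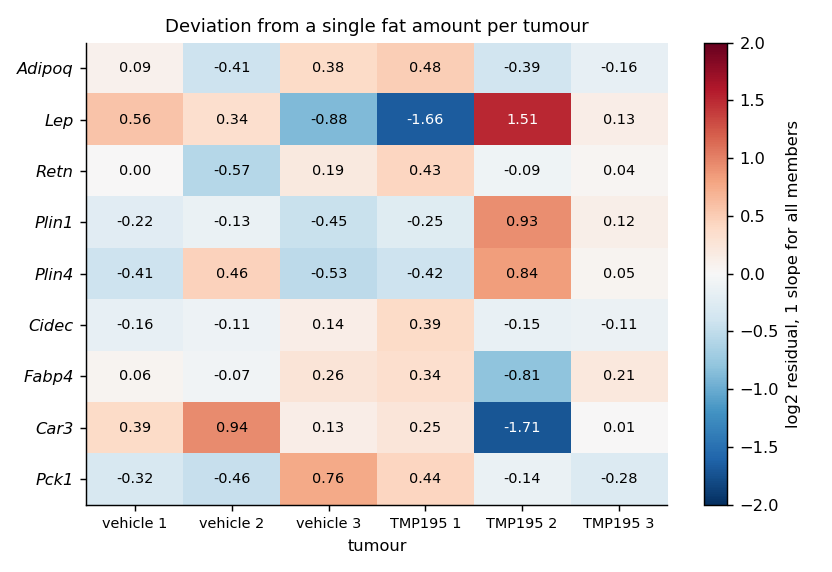
Residual of each gene (rows) in each tumour (columns) on the log2 scale after a gene mean and 1 amount per tumour with the same slope for all genes were taken out. Red is above and blue below the common amount, and the strongest cells are Car3 (-1.71), Lep (1.51) and again Lep (-1.66), the first pair in TMP195 tumour 2 and the last in TMP195 tumour 1.

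Genes outside the set were read against the same tumour order. Those whose log2 profile, centred over the 6 tumours, lay closest to the mean profile of the set were Lpl, the lipoprotein lipase gene (root mean square distance 0.25), Cd36, a fatty acid receptor gene (0.35), Slc36a2, an amino acid transporter gene (0.43), and Cdo1, which encodes cysteine dioxygenase (0.44). Tmem45b (0.45), the thermogenin gene Ucp1 (0.51), Trarg1, a partner of the insulin-responsive glucose carrier (0.52), the lipase gene Ces1d (0.55), Abcd2, a peroxisomal fatty acid transporter gene (0.56), and B3galt2 (0.57) followed. For comparison, the median distance was 1.35 over all genes outside the set, and genes of the set lay 0.23 (Cidec) to 1.15 (Lep) from the mean of the others. All 10 were highest in vehicle tumour 3, as the measure favours. Ucp1 had 4.70, 3.38 and 6.74 under vehicle, then 5.00, 3.45 and 3.53 under TMP195.

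A second list of 17 adipocyte genes that shares none with the set had 16 measured members. In these, 15 were highest in vehicle tumour 3 and all 16 had a lower mean under TMP195, with a median difference of -0.34, but none passed the test. The slope of a gene on the mean of the set had a median of 0.33 here and of 1.14 in the set itself. Genes of the set are part of that mean, which fixes their average slope in advance, so the medians are not like measures. Aqp7, the glycerol channel gene of fat, had a slope of 0.70, Cidea, a droplet gene related to Cidec, 0.46, the hormone-sensitive lipase gene Lipe 0.41, the triglyceride lipase gene Pnpla2 0.20 and the glucose carrier gene Slc2a4 0.10.

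Most regulators and enzymes of fat had shallow slopes on the mean of the set. Pparg, the gene of PPAR gamma, had log2 intensities of 5.73, 5.18 and 6.34 under vehicle, then 6.34, 5.31 and 5.39 under TMP195, a slope of 0.33 on the mean of the set. Cebpa, the gene of its partner C/EBP alpha, had a slope of 0.12. Of 9 adipocyte transcription factor genes, 4 had a higher and 5 a lower mean under TMP195 (median difference -0.05), with 0 past the test. Among 8 genes of fatty acid synthesis (3 higher, 5 lower, median -0.15), the synthase gene Fasn had a slope of 0.29 and the desaturase gene Scd1 0.06. Thrsp of this list, a regulator of lipogenesis singled out after its values were seen, had a slope of 0.53 and spanned 9.58-fold, low in TMP195 tumour 2 alone. Of 6 lipid uptake genes, 2 were higher and 4 lower (median -0.20), and the steep ones were Cd36 and Lpl, with slopes of 1.16 and 0.85. The other droplet genes (2 of 9 higher, median -0.11) included Plin2, a perilipin found in most cell types, with a slope of 0.07, and the other adipokine genes (3 of 6 higher, median -0.06) included the retinol carrier gene Rbp4, with 0.35.

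Receptor genes for the adipokines, listed together with the insulin receptor gene Insr, varied little with the mean of the set. Their median slope was 0.03, which is that of Insr. Their list mean was nonetheless highest in vehicle tumour 3 (8.46) and lowest in TMP195 tumour 2 (8.08), within a range far narrower than that of the set. Only 1 of the 5 genes, that of the leptin receptor, was lowest in TMP195 tumour 2, and 2, Adipor2 and Insr, were highest in vehicle tumour 3. The summed intensity of the list was lowest in vehicle tumour 2 (2303). Lepr, the leptin receptor gene, had 6.53, 7.16 and 6.31 under vehicle, then 6.34, 4.54 and 6.41 under TMP195. It was thus low in TMP195 tumour 2 and highest in vehicle tumour 2, and it differed by -0.91 ± 0.51 (SE), or by -0.29 without TMP195 tumour 2. Adipor2, an adiponectin receptor gene, was highest in vehicle tumour 3 (9.52) and next in TMP195 tumour 1 (9.37) and ranged over 0.63 across tumours, and Cdh13, whose cadherin binds adiponectin, over 0.76. Of the 5 receptor genes 4 were higher and 1 lower under TMP195 (median 0.04), and 0 passed the test.

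**Figure D4:**
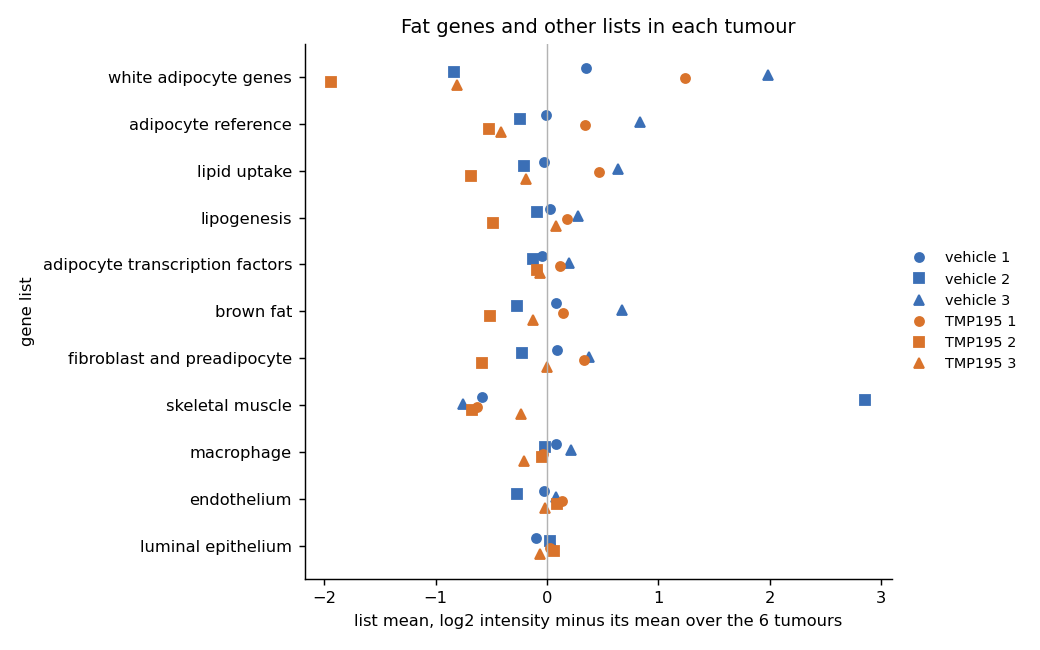
Mean log2 intensity of each gene list in each tumour minus the list's mean over the 6 tumours (horizontal axis), for vehicle (blue) and TMP195 (orange) tumours. The white adipocyte genes spread most, vehicle tumour 3 is on top in every list shown but skeletal muscle, endothelium and luminal epithelium, and the skeletal muscle list is high in vehicle tumour 2 alone.

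Markers of other cell types were read in the same tumours. Luminal epithelial markers such as Krt8, Krt18 and Krt19 had list means of 10.32 to 10.49 in all 6 tumours, and summed intensities of 11388 to 12387 under vehicle and 11557 to 12397 under TMP195. Fabp4 is known from capillary endothelium and macrophages too. Summed over 8 endothelial markers (Pecam1, Cdh5 and Kdr among them) intensity was 754.9 to 973.0 under vehicle and 903.0 to 1003 under TMP195, and over 10 macrophage markers (Adgre1, Csf1r and Cd68 among them) 3375 to 3916 and 3140 to 3401. Of the macrophage markers 5 of 10 were highest in vehicle tumour 3 and all 10 had a lower mean under TMP195 (median -0.13), with 1 at an unadjusted p under 0.05 and 0 past the adjusted test in limma. Mrc1, the mannose receptor gene, and Mertk, a receptor gene for the uptake of dying cells, were highest in vehicle tumour 3 and lowest in TMP195 tumour 2, ranging over 1.42 and 0.93. They had the steepest slopes of the list on the mean of the set, 0.29 and 0.20, where the list median was 0.02. Only 3 of the 10 were lowest in TMP195 tumour 2, and others, Adgre1 and Cd68 among them, were highest there. Fibroblast and preadipocyte markers such as Pdgfra shared part of the order, with 6 of 8 highest in vehicle tumour 3 and 5 of 8 lowest in TMP195 tumour 2, and sums of 4464 to 7030 and 3993 to 6587. Brown fat markers were highest in vehicle tumour 3 in 5 of 8, with sums of 291.0 to 497.9 under vehicle and 245.0 to 356.5 under TMP195. Among them Ucp1 spanned 10.3-fold and Cox8b, a muscle and brown fat subunit of cytochrome oxidase, 6.87-fold, more than Plin1 and Plin4. For Cox8b this rested on TMP195 tumour 2, where it had 3.79, with 4.89 in vehicle tumour 2 as its next lowest value. Without TMP195 tumour 2 Cox8b spanned less than Plin1 (5.64-fold) and Plin4 (4.64-fold), while the span of Ucp1 was unchanged. Ucp1 and Cox8b were the steepest of the list on the mean of the set, with slopes of 0.83 and 0.59. The slopes of the list went down to 0.01, with a median of 0.15. The part of these cells in the levels of the set was not tested. Pck1 is also a liver gene, and of 6 hepatocyte markers Alb stayed between 2.66 and 3.19, whereas Cyp2e1, an enzyme gene known from fat as well and singled out after its values were seen, had 5.24, 4.42 and 8.94, then 8.41, 3.65 and 4.85.

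Dosing was compared over the 3 tumours of each group with limma on all 19937 genes. All 9 genes had a lower mean under TMP195, where 50.5% of all genes did, and 8 of the 9 were at least 1.5-fold lower, where 0.772% of all genes were. No gene of the set passed an adjusted p of 0.05 (smallest adjusted p = 1.00 in limma), and 0% of all genes did. The median difference was -0.99 in the set and -0.0014 over all genes. These 9 genes were read in the same 6 tumours and most of them rose and fell together, so they are not 9 separate observations of a difference. The groups overlapped in all 9, where they were apart in 6.68% of all genes. The vehicle mean of Lep was 4.30 ± 0.87 (SD, n = 3) and its TMP195 mean 3.29 ± 0.15 (SD, n = 3), so that it differed by -1.01 (95% interval -1.95 to -0.08). It was the only gene of the set at an unadjusted p under 0.05 in limma, a threshold that 2.52% of all genes met, and its adjusted p was 1.00. For Adipoq the means were 6.78 ± 1.80 (SD, n = 3) and 5.73 ± 2.06 (SD, n = 3), and the difference was -1.05 (interval -3.90 to 1.81). Car3 differed by -1.97 (interval -4.86 to 0.91), Fabp4 by -1.17 (-3.96 to 1.62), Pck1 by -0.99 (-3.93 to 1.96) and Cidec by -0.92 (-3.47 to 1.64). With 1 tumour left out, Car3 ran from -3.21 (without TMP195 tumour 1, adjusted p = 0.99 in limma) to -0.64 (without TMP195 tumour 2). The remaining differences were -0.75 for Retn, -0.68 for Plin4 and -0.46 for Plin1. Single tumours decided the sign in part: without vehicle tumour 3 Retn stood at 0.15, Plin1 at 0.19 and Pck1 at 0.14, and without TMP195 tumour 2 Retn stood at 0.075. The median of the set was -1.96 without TMP195 tumour 1, -1.64 without vehicle tumour 2, -0.14 without TMP195 tumour 2 and -0.12 without vehicle tumour 3. Without both tumours numbered 2 it was -0.83 and Lep differed by -1.56, with an adjusted p of 0.97 in limma.

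**Figure D5:**
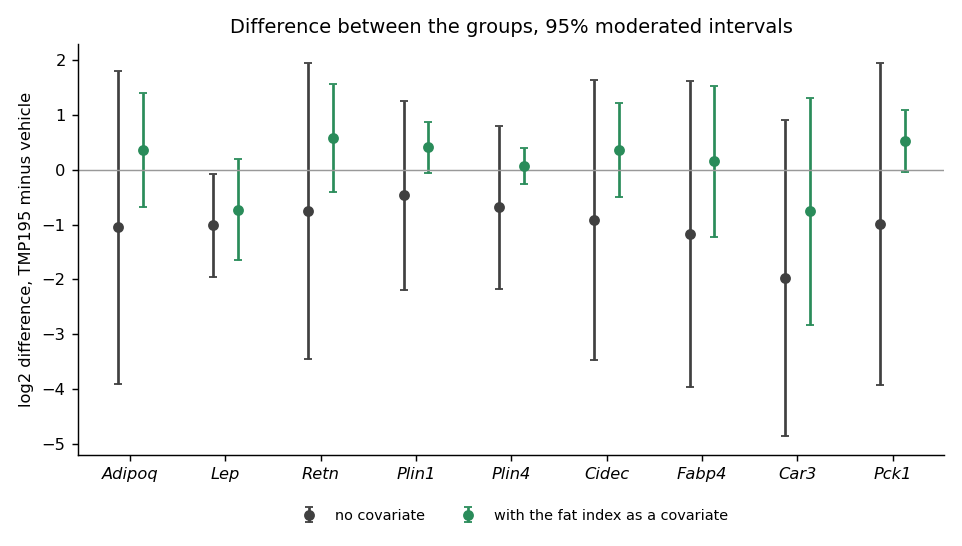
Log2 difference, TMP195 minus vehicle (vertical axis), of the 9 genes with 95% moderated intervals from limma, without a covariate (dark) and with the fat index of 16 other adipocyte genes as a covariate (green). All dark points lie below 0, with an interval that leaves out 0 in Lep alone, and with the covariate 7 of 9 points lie above 0 and all intervals reach across it.

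Whether a gene differed beyond the amount of fat was asked by adding a fat index to the model, the mean log2 intensity of the 16 measured genes of the second adipocyte list. Centred over the tumours, the index was -0.01, -0.24 and 0.84 under vehicle, then 0.34, -0.52 and -0.41 under TMP195. At equal index, 7 of the 9 genes had a difference above 0 and 2, Lep and Car3, below 0, with a median of 0.36, which became -0.12 when TMP195 tumour 1 was left out. Leaving out vehicle tumour 2 gave 0.17, vehicle tumour 3 gave 0.22, TMP195 tumour 3 gave 0.24, TMP195 tumour 2 gave 0.56 and vehicle tumour 1 gave 0.61. Over all genes, 53.4% had a difference below 0 at equal index with all 6 tumours, with a median of -0.011. Here too the 9 genes are not separate observations of a difference. None passed an adjusted p of 0.05 in limma (smallest adjusted p over all genes = 1.00), as 0% of all genes did, and 0 of 9 had an unadjusted p under 0.05, where 2.86% of all genes had. Lep differed by -0.72 (interval -1.64 to 0.19), Car3 by -0.76 (-2.82 to 1.31), Pck1 by 0.52 (-0.05 to 1.09), Plin1 by 0.41 (-0.05 to 0.87) and Adipoq by 0.37 (-0.68 to 1.41). The difference was 0.59 for Retn, 0.36 for Cidec, 0.16 for Fabp4 and 0.07 for Plin4. Lep kept a difference below 0 with each tumour left out in turn, from -1.41 to -0.32, but the interval at equal index includes 0. Car3 ran from -1.86 without TMP195 tumour 1 to -0.13 without TMP195 tumour 2. A fit with 6 tumours, 2 groups and an index leaves 3 residual degrees of freedom, so each of these intervals is wide.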

How the data were processed

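Gene expression was measured on 1 Affymetrix array per tumour. The deposited values are signal intensity, which the authors made with RMA, run in Affymetrix Power Tools as the submitters' processing notes list. Its version, filters and genome build, not given in the sources used here, could not be stated. The values were taken as linear, since column medians ran from 44.8 to 46.4 and the highest values from 8137 to 8873. RMA usually quantile normalizes arrays, so a shift of most genes together would not show. Precision is limited by the number of arrays.

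Of 27359 probe sets, 21784 were annotated to 1 gene, 1620 to several and 3955 to none, and 0 symbols changed when their Entrez IDs were matched to RefSeq genes (GRCm38.p6). Per gene the probe set of highest mean stood for it, and log2 was taken. limma 3.58.1 in R 4.3.3 (lmFit, eBayes) fitted all genes, two-sided, with Benjamini-Hochberg adjustment. Tests were also run on simulated data, with independent noise per gene and a fat-like factor of equal slope in some genes. The simulated data lacked outlying tumours, so they do not show how the tests behave in these data. Python 3.11.15 with numpy 2.4.6, pandas 2.3.3 and matplotlib 3.10.9 did the rest. Genes named were the set, fixed examples of each list and the 10 nearest profiles. Thrsp, Cyp2e1, Mrc1, Mertk, Cox8b and Insr, named as well, were outside the fixed examples. The set and the lists were chosen with earlier results of these data known, and spans, lines and Lepr were recomputed without single tumours after the data were seen. Replicate numbers were not taken as pairs. Deviations of same-numbered tumours from their group means correlated at -0.21, -0.06 and -0.10 across genes, and those of differently numbered tumours at -0.18 to 0.34. With 3 tumours per group these correlations cannot show whether mice were matched.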

Additional observations from a re-analysis of the deposited data

How the results depend on the processing

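No gene of the set passed an adjusted p of 0.05 in limma under any alternative run: median centring, a robust prior with a trend, cyclic loess, the intensity filter (which removed Lep), every probe set, array weights, 1 tumour or both tumours numbered 2 left out, and, at equal fat index, a median index or the other genes of the set as the index. Array weights stopped short of their convergence tolerance in the fit with the index. With the replicate number as a block, though no pairing of these tumours is known, 0 genes passed as well and the median difference stayed at -0.99. Leaving out 1 tumour moved the difference of Retn from -1.77 to 0.15, of Plin1 from -1.08 to 0.19 and of Pck1 from -2.07 to 0.14. At equal index it moved Adipoq from -0.077 to 0.79, Plin4 from -0.12 to 0.19, Cidec from -0.12 to 0.61 and Fabp4 from -0.34 to 0.56. A median index in place of the mean moved the median at equal index from 0.36 to 0.79. Plin4 was -0.048 against the other genes of the set, and Car3 was 0.085 with array weights. The share held by a single fat amount was 90.3% (common slope) and 96.5% (own slopes) on linear intensity, and 79.2% to 88.2% and 92.1% to 96.1% with 1 tumour left out. The cause of these moves was not tested. Lep stayed below 0 in the 13 alternatives that could be run for it and in the 11 at equal index.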
